A study of Mus musculus with 2 samples.

Results

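The collagen chain genes were taken as every row of the normalized count table whose symbol was Col, a number, the letter a and a number. This gave 44 of the 32291 genes of the table. CACs, the colon tumors that arise after azoxymethane (AOM) and dextran sodium sulfate (DSS), had been profiled by single-cell RNA sequencing, which counts mRNA molecules of single cells as UMIs (unique molecular identifiers). Each of 2 libraries held 6 to 8 tumors combined from 3 female mice, so that animals cannot be told apart and each genotype was measured once. Mice of both genotypes were on a C57Bl/6 background and carried floxed Mir34a alleles. They received 10 mg/kg AOM at 6 to 10 weeks of age and again before the second colitis period, were given DSS at 2.5% in cycles 1 and 2 and at 2% in cycle 3, and were sacrificed on day 110. The library labelled Mir34a_F/F came from mice without Cre. The library labelled Mir34a_Mye_KO came from mice with LysM-Cre, a Cre in the lysozyme locus that is active in macrophages and neutrophils, so that fibroblasts, endothelial cells and epithelial cells were not the cells in which Mir34a was to be deleted. Where values of both libraries stand side by side, the value of the library labelled Mir34a_F/F is given before that of the library labelled Mir34a_Mye_KO.

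The libraries held 20312 and 18571 cells in 11 deposited cell types, with medians of 4787 and 7716 UMIs per cell. Collagen mRNAs rested on few cells. There were 57 and 60 fibroblasts, with medians of 3902 and 9214.5 UMIs, and 116 and 107 endothelial cells, with medians of 3964 and 4407 UMIs. A level is the average, over the cells of a type, of the UMIs of a gene per 10000 UMIs. Each molecule is counted once, from its 3′ end, and levels were not scaled by length. The collagen genes span 7105 to 468377 bases, and whether reads within introns were counted is not given in the sources used here, so that a level of 1 gene set beside that of another may also hold a part that goes with gene length. Brackets hold 95% intervals, which cover counting error only and say nothing about differences between mice. With 1 library per genotype no test was made and no p-value was computed. The libraries shared 96 cell barcodes, none of them in a fibroblast or an endothelial cell. In macrophages, the table's feature mir34apri had 133 and 462 UMIs, a level of 0.0723 and 0.111, and Lyz2, the gene that holds the Cre, had 3892 and 1379 UMIs. Where mir34apri lies relative to the deleted segment is not given in the sources used here, so that the genotypes were taken from the labels.

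Collagens are trimers of chains that wind into a triple helix. Types I, III and V build the fibrils of connective tissue and are made mainly by fibroblasts, while type IV forms the sheet of the basement membrane under epithelium and around vessels. Other collagens sit on fibrils, anchor membranes, form beaded filaments or span the cell membrane. In colon tumors fibroblasts are the main source of the fibrillar types, and vessels and their mural cells lay down type IV.

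Every one of the 44 genes had UMIs, from 52 for *Col10a1*, the type X chain of growth plate cartilage, to 6873 for *Col4a1*, a chain of the basement membrane. In fibroblasts 24 genes reached 0.1 UMI per 10000 in both libraries and 14 reached 1, where 36.4% and 6.32% of the 22600 genes with at least 20 UMIs did. In endothelial cells these were 7 and 4 genes, where 36.8% and 6.94% of all genes did, and in epithelial cells 4 and 0, where 38.2% of all genes reached 0.1. Macrophages had 2 genes at 0.1 or more in both libraries (*Col14a1* and *Col4a1*), mast cells had 1 (*Col15a1*) and the erythroid cells, of which there were 106 and 30, had 2 (*Col9a3* and *Col18a1*), where the shares of all genes were 36.6%, 34.3% and 24.2%. Dendritic cells, neutrophils, B cells, T cells and basophils had 0. In erythroid cells a count of 0 allows a level of up to 0.121 and 0.221, so that 0.1 there can rest on few UMIs. *Col15a1* and *Col18a1* together had 2 UMIs in erythroid cells of the library labelled Mir34a_F/F. The level was highest in fibroblasts in both libraries for 24 of the 44 genes (54.5%), where the same held for 6.68% of the 22600 genes with at least 20 UMIs. It was highest in endothelial cells for *Col4a1*, *Col4a2*, *Col13a1*, *Col15a1* and *Col23a1*, in epithelial cells for *Col9a1*, *Col9a2* and *Col26a1*, in erythroid cells for *Col9a3* and in T cells for *Col10a1*. The shares over all genes were 5.77% for endothelial cells, 6.59% for epithelial cells, 0.96% for erythroid cells and 5.93% for T cells, against 11.4%, 6.82%, 2.27% and 2.27% of the collagen genes, so that the epithelial share was near that of all genes. The erythroid level of *Col9a3* rests on 2 and 1 UMIs, against 633 and 427 UMIs in epithelial cells, and the T cell level of *Col10a1* on 9 and 13. The remaining 10 genes, *Col2a1*, *Col4a3*, *Col4a4*, *Col6a6*, *Col8a2*, *Col11a1*, *Col11a2*, *Col17a1*, *Col20a1* and *Col25a1*, had their highest level in a different cell type in each library. For 16 genes the highest cell type stood apart from the next beyond the intervals in both libraries, as did 7.21% of all genes. Of these, 14 were highest in fibroblasts, and *Col15a1* and *Col23a1* were highest in endothelial cells.

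All 44 genes together gave 100.5 [96.1 to 105] and 123 [120 to 126] UMIs per 10000 in fibroblasts, which is 1.01% and 1.23% of the mRNA molecules counted in these cells. Endothelial cells had 30.3 and 26.5, epithelial cells 1.41 and 1.22, macrophages 1.04 and 1.09, and T cells 0.784 and 0.551. Fibroblasts made up 0.281% and 0.323% of the cells and held 16.7% and 37.3% of all collagen UMIs. The 11614 and 9865 epithelial cells, each with little collagen mRNA, held 55.2% and 32.8%. These are shares of UMIs and go with depth as well as with level. Over all genes, fibroblasts held 306299 and 679725 UMIs and epithelial cells 94415818 and 88662011. T cells, which are not known to make fibrillar collagen, served as the background, because free RNA in the suspension gives UMIs in cells that do not express a gene.

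**Figure D1:**
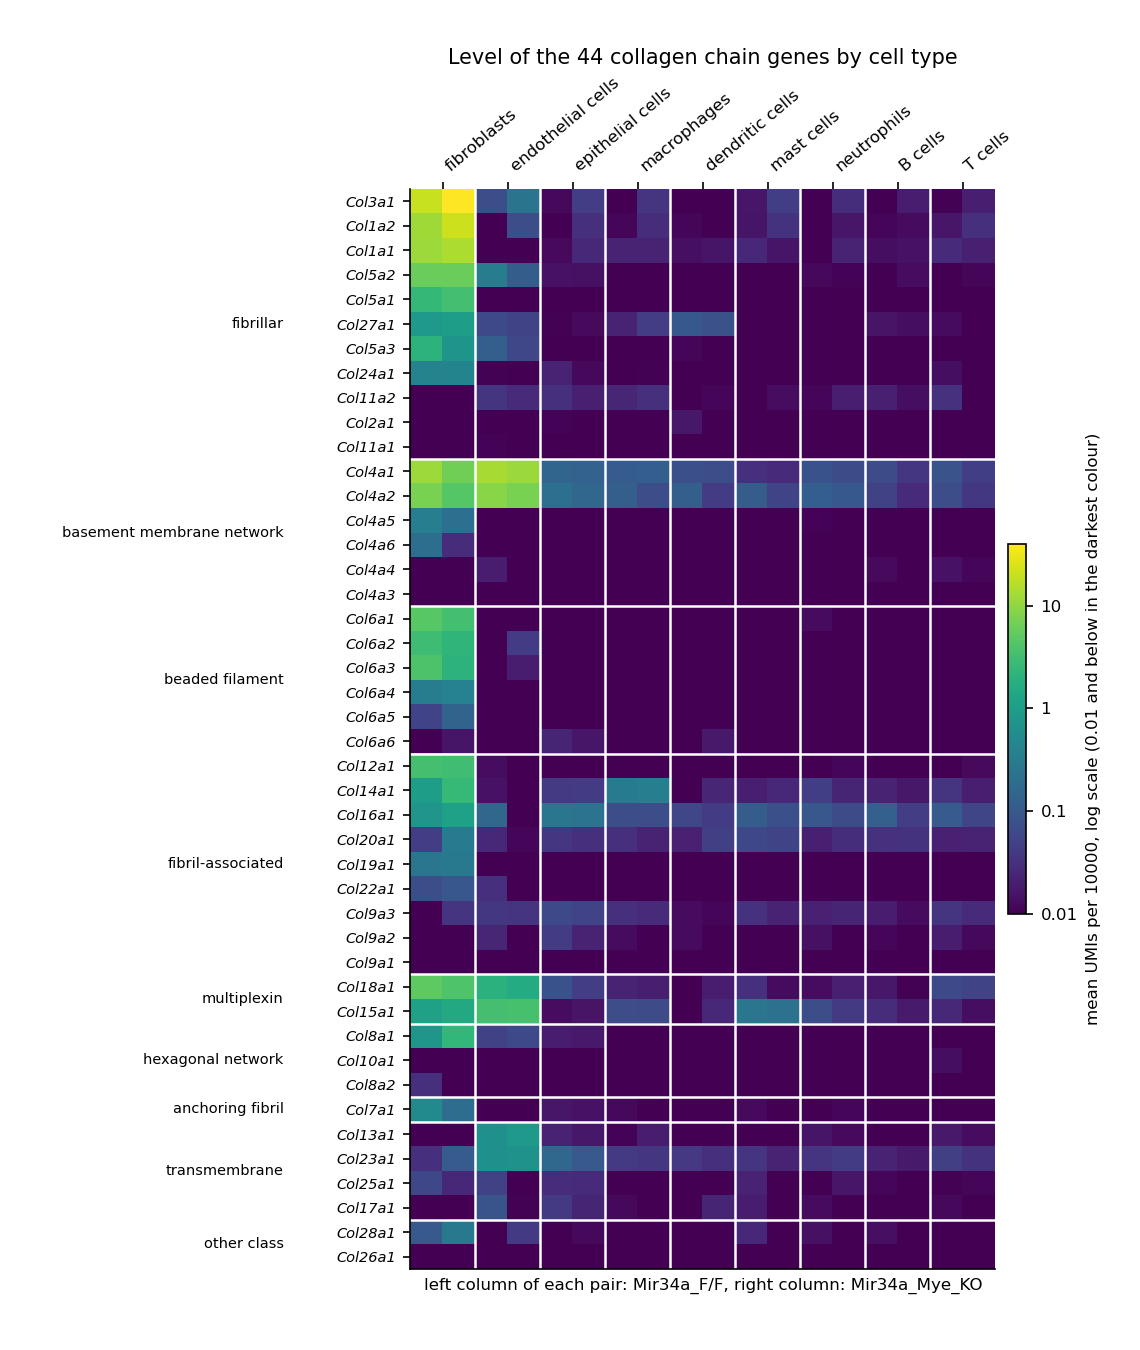
Mean level of each of the 44 collagen chain genes, in UMIs per 10000 on a log color scale, by structural class (rows) and by cell type with the library labelled Mir34a_F/F on the left and Mir34a_Mye_KO on the right of each pair of columns. Erythroid cells and basophils are not drawn. The fibroblast columns hold most of the bright fields, type IV chains are bright in fibroblasts and endothelial cells, and *Col14a1* in macrophages and *Col15a1* in mast cells stand out among the immune cells.

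The group annotated as fibroblasts was checked against markers that hold no collagen gene. A list of 10 fibroblast markers such as Dcn and Pdgfra summed to 57.3 and 84.8 UMIs per 10000 there, against 3.36 and 2.14 in endothelial cells, and no marker of the list was at 0. The group also held other signals. Mural markers (11 genes of pericytes and smooth muscle) summed to 13.1 and 9.34, epithelial markers to 26.0 and 18.4, neutrophil markers to 29.4 and 4.43, and glia markers to 0.00801 and 1.17, with glia markers at 5 UMIs or more in 0 and 2 cells. An Epcam UMI was present in 36 and 45 of these cells and a Ptprc UMI in 13 and 22. What these signals add to the collagen levels was not tested. Endothelial markers summed to 39.1 and 40.3 in endothelial cells, with epithelial markers at 30.6 and 17.7 and neutrophil markers at 6.69 and 28.3.

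Fibrillar chains were the most abundant class in fibroblasts, with 55.3 [52.1 to 58.7] and 87.2 [84.8 to 89.7] UMIs per 10000 over 11 genes. *Col3a1*, the only chain of type III collagen, had the highest level of any collagen gene in any cell type, at 19.6 [17.8 to 21.4] and 39.8 [38.3 to 41.4], and was found in 78.9% and 88.3% of fibroblasts. *Col1a2* and *Col1a1*, the chains of type I collagen, followed. *Col1a2* had 12.03 [10.5 to 13.7] and 21.3 [20.1 to 22.5], and *Col1a1* had 11.8 [10.1 to 13.7] and 14.6 [13.5 to 15.7]. The type I molecule holds more *Col1a1* than *Col1a2* chains, but the UMIs of *Col1a1* were 0.789 [0.687 to 0.906] and 0.679 [0.633 to 0.728] times those of *Col1a2*. These 3 genes had 82.7% and 88.4% of all their UMIs in fibroblasts. The background of T cells was 0.0105 and 0.0202 for *Col3a1*, 0.0165 and 0.0307 for *Col1a2* and 0.0274 and 0.0208 for *Col1a1*. In endothelial cells *Col1a1* had 0 and 1 UMI, where a count of 0 allows a level of up to 0.0443.

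The type V chains, which set the width of type I fibrils, were all highest in fibroblasts. *Col5a2* had 6.06 [5.00 to 7.27] and 6.00 [5.40 to 6.65] UMIs per 10000, *Col5a1* had 2.48 [1.89 to 3.21] and 3.37 [2.93 to 3.85], and *Col5a3* had 2.14 [1.55 to 2.89] and 0.731 [0.535 to 0.976]. *Col5a2* and *Col3a1* lie next to each other on chromosome 1 on opposite strands, with 24614 bases between them. Their levels in fibroblasts nevertheless differed, and *Col5a2* was nearly the same in both libraries where *Col3a1* was not. *Col27a1* and *Col24a1*, fibrillar chains known from cartilage and bone, had 0.860 and 1.03, and 0.406 and 0.417. The cartilage chains *Col2a1*, *Col11a1* and *Col11a2* did not reach 0.1 in fibroblasts.

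Promoters of *Col3a1* and *Col1a2* are shown because these genes had the highest levels of all collagen genes in fibroblasts of both libraries. RefSeq promoter sequences (GRCm38.p6) were matched for 35 of the 44 genes, and *Col1a1* was not among them. Each sequence runs from 250 bases before the RefSeq start of the gene to 30 bases after it, on the + strand, chr6:4505368-4505647 for *Col1a2* and chr1:45311288-45311567 for *Col3a1*. Capitals mark matches on either strand to TATAAA (the letters of the TATA element), to CCAAT (a site of the factor NF-Y) or to GGGCGG, the GC box. Matches to different motifs did not overlap in these windows.
Col1a2: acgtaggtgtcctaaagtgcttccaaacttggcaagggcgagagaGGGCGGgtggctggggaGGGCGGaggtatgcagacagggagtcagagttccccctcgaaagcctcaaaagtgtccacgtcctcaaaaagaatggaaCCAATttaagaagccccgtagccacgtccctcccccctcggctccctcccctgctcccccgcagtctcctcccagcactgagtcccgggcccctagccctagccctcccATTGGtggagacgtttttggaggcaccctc
Col3a1: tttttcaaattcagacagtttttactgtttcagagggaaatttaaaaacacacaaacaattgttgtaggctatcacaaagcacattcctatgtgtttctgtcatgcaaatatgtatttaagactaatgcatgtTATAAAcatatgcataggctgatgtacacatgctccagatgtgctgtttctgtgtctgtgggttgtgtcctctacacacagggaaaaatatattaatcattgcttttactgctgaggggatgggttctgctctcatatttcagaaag
The *Col1a2* window held GC boxes and CCAAT boxes and no TATAAA, and the *Col3a1* window held TATAAA and neither of the others. Bases outside these windows and the distance of a match from the start were not weighed. In the GENCODE positions *Col1a2* begins elsewhere, at base 4504814, so that the contrast holds for these RefSeq windows only. Among the 35 genes, counting the whole window of 250 bases before and 50 after the start, TATAAA was found for 5, a CCAAT box for 13 and a GC box for 22. Of the 32851 promoters of the table, 13.6% held TATAAA, 37.4% held a CCAAT box and 35.7% held a GC box. A match of letters is not evidence of binding.

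Type IV chains were shared by fibroblasts and endothelial cells. *Col4a1* and *Col4a2*, which form the common molecule of the basement membrane, are neighbours on chromosome 8 that are read away from each other, *Col4a1* from the - strand and *Col4a2* from the + strand. Their RefSeq starts overlap, so the stretch that holds both starts is shown, on the + strand at chr8:11312777-11312854 of GRCm38.p6, with the 22 bases from the start of *Col4a2* (11312805) to that of *Col4a1* (11312826) in capitals.
Col4a2 and Col4a1: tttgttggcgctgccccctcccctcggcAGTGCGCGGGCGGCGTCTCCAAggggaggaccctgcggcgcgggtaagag
In endothelial cells *Col4a1* had 13.4 [12.3 to 14.6] and 11.5 [10.6 to 12.4] UMIs per 10000, and *Col4a2* had 8.99 [8.07 to 9.99] and 7.42 [6.74 to 8.14]. In fibroblasts *Col4a1* had 11.8 [10.2 to 13.4] and 6.63 [5.93 to 7.40], and *Col4a2* had 7.48 [6.32 to 8.78] and 4.45 [3.85 to 5.12]. The intervals of the fibroblasts and the endothelial cells overlapped for both genes in the library labelled Mir34a_F/F and did not overlap in the library labelled Mir34a_Mye_KO. The UMIs of *Col4a1* were 1.54 [1.39 to 1.70] and 1.57 [1.43 to 1.72] times those of *Col4a2* in endothelial cells, and 1.46 and 1.56 times in fibroblasts. In epithelial cells the order was the opposite, with 0.872 [0.813 to 0.936] and 0.851 [0.788 to 0.920], and T cells had 1.08 [0.816 to 1.43] and 1 [0.750 to 1.33]. Neutrophils also had low ratios, at 0.683 [0.452 to 1.02] and 0.674 [0.478 to 0.946]. Macrophages had 1.24 [1.02 to 1.51] and 1.83 [1.53 to 2.20]. The chains of the other type IV molecules were rare. *Col4a5*, which pairs with *Col4a6* or with *Col4a3* and *Col4a4*, had 0.342 and 0.205 in fibroblasts, from 6 and 5 UMIs, and *Col4a6* had 4 and 1 UMIs there. In epithelial cells *Col4a5* had 68 and 40 UMIs and *Col4a6* 32 and 21.

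The type VI chains, which form beaded filaments around cells, were highest in fibroblasts for *Col6a1* to *Col6a5*. *Col6a1* had 4.63 [3.62 to 5.83] and 3.35 [2.86 to 3.91] UMIs per 10000, *Col6a2* had 2.99 [2.23 to 3.93] and 2.27 [1.90 to 2.70], and *Col6a3* had 3.96 [3.08 to 5.02] and 2.11 [1.73 to 2.53]. *Col6a1*, *Col6a2* and *Col6a3* enter the molecule in equal numbers. The UMIs of *Col6a1* were 1.42 [1.09 to 1.84] and 1.39 [1.16 to 1.67] times those of *Col6a2*, and those of *Col6a3* were 0.890 [0.698 to 1.14] and 0.649 [0.537 to 0.784] times those of *Col6a1*. *Col6a4* and *Col6a5*, which can take the place of *Col6a3*, had 0.326 and 0.394, and 0.0538 and 0.139. The 6 genes together had 0 UMIs in endothelial cells of the library labelled Mir34a_F/F and a level of 0.062 in the other.

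Among collagens that sit on the surface of fibrils, *Col12a1* had 3.43 [2.63 to 4.40] and 3.14 [2.60 to 3.77] UMIs per 10000 in fibroblasts and *Col14a1* had 1.05 [0.724 to 1.47] and 2.56 [2.15 to 3.02]. *Col16a1* had 0.764 [0.400 to 1.32] and 1.14 [0.809 to 1.55]. *Col19a1* had 0.263 and 0.283, but its 7 UMIs lay in 1 cell and its 22 UMIs in 4 cells, and 1 and 3 of these cells had more mural than fibroblast marker UMIs. The multiplexins *Col18a1* and *Col15a1*, which lie at basement membranes and release antiangiogenic fragments, were found in both stromal groups. *Col18a1* was higher in fibroblasts, at 5.13 [4.13 to 6.29] and 4.08 [3.57 to 4.66], than in endothelial cells, at 1.96 [1.59 to 2.40] and 1.66 [1.32 to 2.07]. *Col15a1* had the opposite order, with 1.16 [0.839 to 1.56] and 1.52 [1.22 to 1.87] in fibroblasts and 3.45 [2.88 to 4.09] and 3.57 [3.11 to 4.07] in endothelial cells. *Col8a1*, a chain of the hexagonal network of vessel walls, had 0.804 [0.522 to 1.18] and 2.45 [2.12 to 2.82] in fibroblasts. *Col7a1*, the chain of anchoring fibrils, had 0.526 [0.173 to 1.22] and 0.196 [0.0565 to 0.488] from 10 and 6 UMIs.

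**Figure D2:**
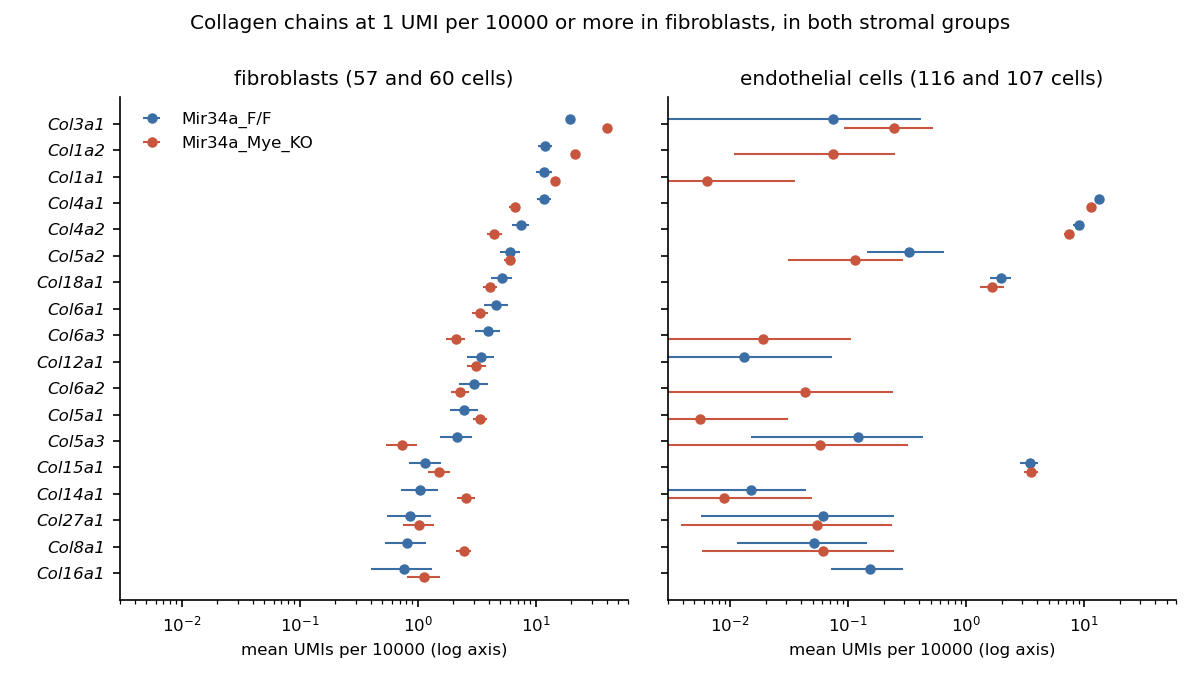
Mean level in UMIs per 10000 (log axis) of the collagen chains at 1 UMI per 10000 or more in fibroblasts, in fibroblasts and in endothelial cells, with 1 point per library and bars for the 95% counting interval. Genes with no UMI have no point, and intervals are clipped at the left edge. *Col4a1*, *Col4a2* and *Col15a1* have high points in both panels, while *Col1a1*, *Col1a2* and *Col3a1* lie at or under 0.244 in endothelial cells.

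Endothelial cells also had the transmembrane chains. *Col13a1* had 0.643 [0.393 to 0.993] and 0.870 [0.661 to 1.12] UMIs per 10000 and *Col23a1* had 0.648 [0.373 to 1.05] and 0.700 [0.510 to 0.936]. *Col23a1* lay in few of these cells, with a UMI in 12.1% and 8.41% of them. Among the 33 and 29 endothelial cells with a UMI of Prox1, the transcription factor of lymphatic endothelium, *Col23a1* was at 2.06 [1.14 to 3.42] and 1.85 [1.39 to 2.42], and among those without it was at 0.0879 [0.00929 to 0.333] and 0.271 [0.102 to 0.579]. Flt4, the receptor of lymphatic growth factors, was likewise higher in the cells with a Prox1 UMI, at 3.00 and 2.04 against 0.506 and 0.304. *Col23a1* had a UMI in 33.3% and 20.7% of the cells with Prox1 and in 3.61% and 3.85% of those without. With every cell thinned to 1000 UMIs by a random draw, these shares were 12.1% and 0%, and 0% and 1.30%. After thinning, the order was thus seen in the library labelled Mir34a_F/F and could not be decided in the other. In that other library, with 29 and 77 cells thinned, too few kept a *Col23a1* UMI for the thinned shares to decide an order. *Col13a1* did not differ beyond the intervals in the library labelled Mir34a_F/F, with 0.521 [0.215 to 1.06] against 0.692 [0.378 to 1.16], and was lower in Prox1 cells in the other, with 0.380 [0.168 to 0.739] against 1.05 [0.781 to 1.39]. Prox1 is not particular to lymphatic cells in these tumors. A Prox1 UMI was present in 36.7% and 33.3% of epithelial cells and in 15.7% and 20.3% of T cells.

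In fibroblasts 22 of the 44 genes had at least 20 UMIs over both libraries and could be compared between them. A gene was called past 2-fold where the log2 ratio of the level in the library labelled Mir34a_Mye_KO over that in Mir34a_F/F was at least 1 or at most -1 and its interval excluded 0. *Col3a1*, *Col14a1* and *Col8a1* were past 2-fold higher in the library labelled Mir34a_Mye_KO, as were 4.64% of the 7287 genes compared in fibroblasts, and *Col5a3* was past 2-fold lower, as were 4.1%. The median log2 ratio was 0.18 over the 22 genes and -0.07 over all 7287.

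The log2 ratio of *Col3a1* was 1.03 [0.88 to 1.17]. That of *Col14a1*, which binds fibril surfaces, was 1.29 [0.73 to 1.88], and that of *Col8a1* was 1.61 [1.01 to 2.27]. *Col5a3* had -1.55 [-2.19 to -0.92]. Among genes within 2-fold, the intervals of *Col1a2* at 0.82 [0.62 to 1.03] and *Col1a1* at 0.30 [0.06 to 0.55] lay above 0. The basement membrane chains *Col4a1* at -0.83 [-1.08 to -0.57] and *Col4a2* at -0.75 [-1.06 to -0.43] and the type VI chain *Col6a3* at -0.91 [-1.36 to -0.46] lay below 0. *Col5a2* at -0.01 [-0.32 to 0.30] and *Col12a1* at -0.13 [-0.58 to 0.34] differed by less than their intervals.

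Cells of the library labelled Mir34a_Mye_KO were deeper, and 3 of these 4 calls changed with the choice of cells or depth. *Col3a1* was past 2-fold in 7 of 7 other settings, with log2 ratios from 1.02 to 1.33. Subtracting the T cell level (1.03) or adding a pseudocount of 0.1 (1.02) could hardly move a gene at its level. With every cell thinned to 1000 UMIs, 12 collagen genes kept the 20 UMIs needed for a comparison. *Col3a1* was then higher, as were 3.38% of the 917 genes compared, and *Col4a1* and *Col6a3* were past 2-fold lower, as were 5.13%. *Col8a1* with 3 and 13 UMIs, *Col14a1* with 7 and 12 and *Col5a3* with 15 and 1 had too few UMIs to be compared, with log2 ratios of 1.96, 0.63 and -4.06. In the 12 and 8 fibroblasts with UMIs of at least 2 fibroblast or mural markers and none of Epcam or Ptprc, 15 collagen genes were compared. Of these, 7 were past 2-fold higher (*Col3a1*, *Col1a1*, *Col1a2*, *Col5a1*, *Col15a1*, *Col16a1* and *Col18a1*), as were 14.8% of all genes compared in these cells, and 2 were lower (*Col4a1* and *Col4a2*), as were 10.2%. *Col5a3* was not past 2-fold in these cells, at -1.24 [-2.60 to 0.04]. *Col8a1* had 2 and 0 UMIs there and *Col14a1* had 0 and 18, too few to be compared, and the order of *Col8a1* was the opposite of that over all fibroblasts. In the other 5 settings these 3 genes were past 2-fold, with log2 ratios from 1.27 to 1.70 for *Col8a1*, from 1.196 to 1.47 for *Col14a1* and from -1.95 to -1.23 for *Col5a3*. Each library is 1 pool of tumors, so that genotype, pool and depth cannot be told apart.

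**Figure D3:**
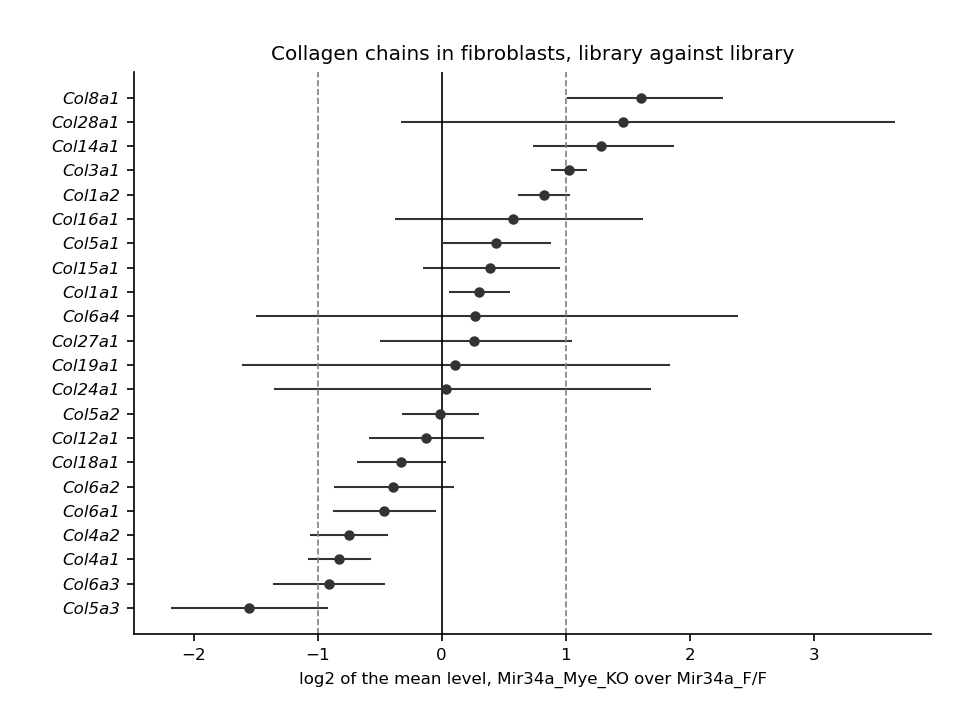
Log2 ratio of the mean level in fibroblasts, Mir34a_Mye_KO over Mir34a_F/F, for the 22 collagen chain genes with at least 20 UMIs, with 95% counting intervals. *Col8a1*, *Col14a1* and *Col3a1* lie above 1, *Col5a3* lies below -1, and the type IV chains *Col4a1* and *Col4a2* lie between -1 and 0.

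Collagen differed widely among the fibroblast-labelled cells themselves. The lowest, median and highest cell had 0, 82.3 and 312.7 collagen UMIs per 10000 in the library labelled Mir34a_F/F, and 9.44, 83.5 and 434 in the other. A cell held a median of 10 and 14 different chains, up to 21 and 23. The 5 cells with the most collagen UMIs held 36.05% and 33.9% of them. The median cells were thus alike in collagen, while the lower quartiles were 52.6 and 33.98 and the upper quartiles 131 and 174, a wider spread in the library labelled Mir34a_Mye_KO. *Col1a1* and *Col3a1* were found together in 40 and 47 cells. *Col3a1* had a median cell at 14.1 and 22.1 per 10000, and 3 cells held 27.1% and 27.4% of its UMIs. *Col14a1* and *Col8a1* were found in fewer cells, with UMIs of *Col14a1* in 12 and 25 cells and of *Col8a1* in 10 and 19. The number of cells with a UMI also goes with level and depth, so that a cell without a UMI may still express the gene.

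In 9 and 10 of the fibroblast-labelled cells the mural markers had more UMIs than the fibroblast markers. In the library labelled Mir34a_F/F, *Col4a1* and *Col4a2* together were at 40.4 [34.4 to 47.2] UMIs per 10000 in these cells and at 15.3 [13.3 to 17.4] in the other 48. In the library labelled Mir34a_Mye_KO they were at 11.6 [8.95 to 14.8] and 10.98 [10.01 to 12.02], so that this difference was seen in 1 library alone. Cells with more mural markers there included some at 36.2%, 36.9%, 38.9% and 49.0% mitochondrial UMIs. Their type IV levels were 3.96, 11.9, 4.72 and 1.51. In the library labelled Mir34a_F/F a cell with more mural markers lay at 31.5%, with type IV at 7.45. The part of such cells in these levels was not tested. *Col1a1*, *Col1a2* and *Col3a1* together were lower in the cells with more mural markers in both, with 29.8 [23.8 to 36.9] against 45.9 [42.7 to 49.3] and with 17.5 [14.4 to 21.1] against 87.3 [84.6 to 89.96]. *Col14a1* and *Col8a1* had 0 UMIs in the 9 and 10 cells, and 1.25 and 3.07, and 0.955 and 2.94, in the other cells. *Col5a3* went the other way, at 4.38 [2.82 to 6.49] and 1.56 [0.884 to 2.56] in the cells with more mural markers against 1.72 [1.10 to 2.57] and 0.565 [0.382 to 0.804]. Of the cells with more type IV than type I and III UMIs, 6 and 5 in all, 5 and 4 were cells with more mural markers. These cells come from 1 pool each, so that they are no replicates.

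**Figure D4:**
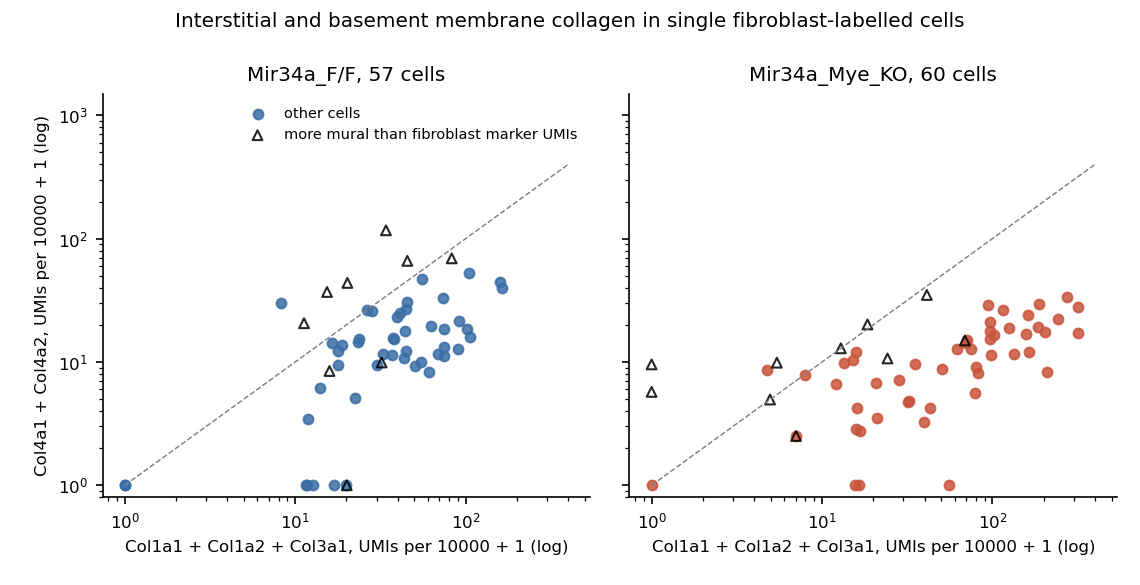
Each point is a fibroblast-labelled cell, with the summed UMIs per 10000 of *Col1a1*, *Col1a2* and *Col3a1* (x axis) and of *Col4a1* and *Col4a2* (y axis), both plus 1 on log axes, for the 57 cells of the library labelled Mir34a_F/F (left) and the 60 of Mir34a_Mye_KO (right). Triangles are cells with more mural than fibroblast marker UMIs, and the dashed line marks equal sums. Most cells above the line are triangles (5 of 6 and 4 of 5).

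Epithelial cells of the tumors had low levels of a few chains. *Col16a1*, a chain of fibril surfaces and of cell attachment, was at 0.256 [0.240 to 0.271] and 0.239 [0.224 to 0.254] UMIs per 10000. The background of *Col16a1* in T cells was 0.109 [0.0852 to 0.136] and 0.0565 [0.0450 to 0.0700]. A UMI of *Col16a1* was present in 13.97% and 14.3% of epithelial cells (median depth 5315.5 and 6623 UMIs), while the share among T cells was 4.08% and 4.64% (median depth 3548 and 8043). Thinned to 1000 UMIs, these shares were 2.37% and 2.25%, and 1.07% and 0.454%. *Col4a2* had 0.204 and 0.156 and *Col4a1* had 0.149 and 0.137, where T cells had 0.0700 and 0.0383, and 0.0835 and 0.0460. *Col23a1*, a transmembrane collagen, had 0.159 [0.149 to 0.171] and 0.102 [0.0922 to 0.113], against 0.0478 and 0.0337 in T cells, and a log2 ratio between the libraries of -0.64 [-0.82 to -0.46]. The type IX chains *Col9a2* and *Col9a3*, known from cartilage, had 0.0416 and 0.0228, and 0.0618 and 0.0526.

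Among epithelial cells these chains were not spread evenly. Cells were split by UMIs of Lgr5, a receptor of crypt stem cells, and of Krt20, a keratin of differentiated colon cells. *Col23a1* was at 0.451 [0.409 to 0.495] and 0.297 [0.266 to 0.331] in the 1646 and 1283 cells with Lgr5 and no Krt20, and at 0.0569 [0.0456 to 0.0702] and 0.0375 [0.0296 to 0.0467] in the 3308 and 2851 cells with Krt20 and no Lgr5. Cells with neither lay between, at 0.123 [0.108 to 0.140] and 0.0843 [0.0685 to 0.103]. Thinned to 1000 UMIs, *Col23a1* was found in 3.82% and 2.28% of the Lgr5 cells and in 0.521% and 0.351% of the Krt20 cells. *Col9a3* had the same order, at 0.159 and 0.131 in the Lgr5 cells, 0.04999 and 0.0485 in cells with neither and 0.0295 and 0.0240 in the Krt20 cells. *Col16a1* was at 0.396 [0.351 to 0.444] and 0.448 [0.402 to 0.497] against 0.155 [0.136 to 0.176] and 0.138 [0.123 to 0.155]. *Col4a1* had 0.138 and 0.145 in the Lgr5 cells and 0.153 and 0.122 in the Krt20 cells, with overlapping intervals in both libraries. The median depth was 9684 and 8012 UMIs in the Lgr5 cells and 7226 and 10704 in the Krt20 cells, so that depth was higher in the Lgr5 cells in 1 library and lower in the other.

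Macrophages had *Col14a1* at 0.304 [0.277 to 0.333] and 0.350 [0.320 to 0.383] UMIs per 10000, in 19.0% and 22.1% of the cells. T cells, with 0.0343 and 0.0202, neutrophils, with 0.0461 and 0.0239, and dendritic cells, with 0.00808 and 0.0242, were lower beyond the intervals. Within macrophages *Col14a1* was at 0.481 [0.431 to 0.535] and 0.487 [0.445 to 0.532] in cells with a UMI of Mrc1, the mannose receptor of resident-type macrophages, and at 0.197 [0.167 to 0.231] and 0.229 [0.186 to 0.280] in cells without. It was at 0.423 and 0.423 in cells with a UMI of the complement gene C1qa against 0.0884 and 0.0697 without, and at 0.0868 and 0.0992 in cells with a UMI of Ly6c2, a marker of recent monocytes, against 0.363 and 0.408 without. *Col14a1* thus followed Mrc1 and C1qa and not Ly6c2 in both libraries. Cells with a Mrc1 UMI were deeper, with medians of 10915 and 18462 UMIs against 5854 and 6139.5. Thinned to 1000 UMIs, *Col14a1* was found in 5.17% and 3.85% of the cells with Mrc1 and in 2.06% and 2.69% of those without. Fibroblast markers summed to 0.276 and 0.342 in macrophages. Their part in the level of *Col14a1* was not tested. *Col4a1* was at 0.113 [0.0944 to 0.133] and 0.118 [0.0982 to 0.140].

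Mast cells had *Col15a1* at 0.256 [0.184 to 0.346] and 0.225 [0.181 to 0.275] UMIs per 10000, against 0.0257 and 0.0134 in T cells. Dendritic cells had *Col27a1* at 0.0968 [0.0541 to 0.160] and 0.0790 [0.0538 to 0.112], against 0.0127 and 0.00467 in T cells. In dendritic cells with a UMI of Ccr7, the receptor that guides mature dendritic cells to lymph nodes, *Col27a1* was at 0.160 [0.0858 to 0.272] and 0.149 [0.0964 to 0.219], and in those without at 0.0475 [0.00895 to 0.145] and 0.0230 [0.00871 to 0.0491]. These intervals overlapped in the library labelled Mir34a_F/F, where the values rest on 16 and 4 UMIs, and were apart in the other, with 40 and 7. Thinned to 1000 UMIs, *Col27a1* was found in 1.32% and 0.521% of the Ccr7 cells and in 1.03% and 0% of the others, near the level of 1 UMI.

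**Figure D5:**
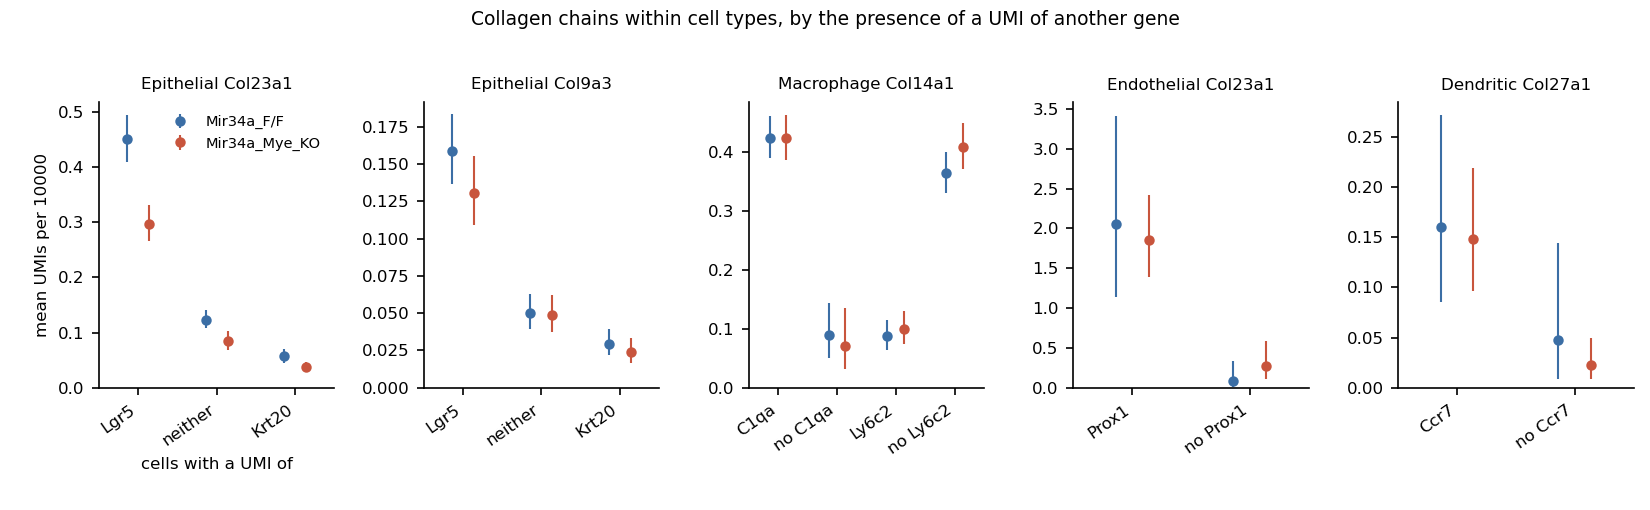
Mean level in UMIs per 10000 of single collagen chains within epithelial cells, macrophages, dendritic cells and endothelial cells, split by the presence of a UMI of another gene, with 1 point per library and bars for the 95% counting interval. *Col23a1* is higher in Lgr5 than in Krt20 epithelial cells, *Col14a1* in macrophages with C1qa, and *Col23a1* in endothelial cells with Prox1, in both libraries as plotted. The order for Prox1 could not be decided in the library labelled Mir34a_Mye_KO once cells were thinned to 1000 UMIs, where too few cells kept a *Col23a1* UMI.

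Fibrillar chains were also counted at very low levels outside the stroma. The 11 fibrillar genes together were higher beyond the intervals in the library labelled Mir34a_Mye_KO in epithelial cells, with 0.136 [0.123 to 0.150] and 0.180 [0.164 to 0.197], and in macrophages, with 0.123 [0.0988 to 0.151] and 0.200 [0.173 to 0.231]. In T cells they had 0.141 [0.113 to 0.172] and 0.115 [0.0973 to 0.136], which overlap, and in neutrophils 0.0744 [0.0499 to 0.107] and 0.128 [0.0954 to 0.168], which overlap as well. *Col1a1*, *Col1a2* and *Col3a1* alone had 0.0544 [0.0383 to 0.0750] and 0.0717 [0.0572 to 0.0888] in T cells. Their sum was also larger in the library labelled Mir34a_Mye_KO in neutrophils (0.0245 and 0.0685) and B cells (0.0289 and 0.0468). The same held for mast cells (0.0581 and 0.0964) and endothelial cells (0.0743 and 0.324), all with overlapping intervals. Basophils, with 2 and 1 UMIs, went the other way. A larger sum was thus not particular to epithelial cells and macrophages. In epithelial cells 44 genes were compared. *Col3a1*, *Col1a2*, *Col1a1* and *Col5a1* were past 2-fold higher in the library labelled Mir34a_Mye_KO, as were 1.35% of all genes compared there, and *Col4a4*, *Col11a1* and *Col5a3* were past 2-fold lower, as were 3.8%. *Col3a1* had 0.0118 [0.00862 to 0.0157] and 0.0455 [0.0371 to 0.0552] in epithelial cells, *Col1a2* had 0.00941 and 0.0321, *Col1a1* had 0.0124 and 0.0252, and *Col5a1* had 0.00266 and 0.00733. *Col3a1* lay above the T cell background beyond the intervals in the library labelled Mir34a_Mye_KO, where T cells had 0.0202 [0.0136 to 0.0290], and overlapped it in the other. The intervals of *Col1a2*, *Col1a1* and *Col5a1* overlapped those of T cells in both libraries. With the T cell level subtracted, *Col3a1* was past 2-fold higher and *Col9a2* lower in epithelial cells. *Col1a2*, *Col1a1* and *Col5a1* then fell to 0 in the library labelled Mir34a_F/F, *Col11a1* and *Col5a3* in the other, and *Col4a4* in both. No ratio could be called for these genes. Thinned to 1000 UMIs, *Col3a1*, *Col1a2* and *Col1a1* were past 2-fold higher as well, and *Col24a1* was the gene called lower. *Col5a1*, *Col4a4*, *Col11a1* and *Col5a3* then had too few UMIs to be compared. With a pseudocount of 0.1 there were 0 calls. The genes called in epithelial cells all lay under 0.1, where this setting cannot give a 2-fold ratio, so that it does not decide these calls. *Col4a4* had 0.00655 and 0.00291, *Col11a1* 0.00446 and 0.00118, and *Col5a3* 0.00543 and 0.00114.

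Other values of the epithelial cells also differed between the libraries. Epithelial markers summed to 71.1 and 50.9, macrophage markers to 1.89 and 2.78, B and plasma cell markers to 1.98 and 7.62, and fibroblast markers to 0.189 and 0.219. The median share of mitochondrial UMIs was 11.2% and 18.3%, and 2328 and 3825 of the epithelial cells lay at 25% or more. Their part in the collagen differences was not tested. With the cells at 25% or more left out, *Col3a1*, *Col1a2*, *Col1a1* and *Col5a1* were past 2-fold higher as well. *Col11a1* and *Col5a3* were lower as well, *Col8a2* was added, and *Col4a4* was no longer called, at a log2 ratio of -0.93 [-1.94 to -0.005]. With UMIs summed over cells, *Col1a1* was no longer past 2-fold, at 0.95 [0.52 to 1.39].

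In macrophages 25 genes were compared. *Col3a1*, *Col1a2* and *Col6a2* were past 2-fold higher in the library labelled Mir34a_Mye_KO, as were 1.23% of all genes compared there, and *Col9a2* and *Col7a1* were past 2-fold lower, as were 3.49%. With cells thinned to 1000 UMIs, 5 collagen genes could still be compared in macrophages, none of these 5 genes among them, and 0 were past 2-fold. With a pseudocount of 0.1 there were also 0, but the genes called in macrophages all lay under 0.1, where this setting cannot give a 2-fold ratio. With UMIs summed over cells *Col6a2* was no longer past 2-fold, at a log2 ratio of 1.48 [-0.11 to 3.49]. It was also not called with cells under 25% mitochondrial UMIs, at 2.08 [-0.19 to 4.59], or with 500 mRNAs and under 10%. *Col3a1*, *Col1a2*, *Col9a2* and *Col7a1* kept their calls in these settings, and *Col27a1* was added as higher with either mitochondrial limit. With the T cell level subtracted, *Col27a1* and *Col4a1* were past 2-fold higher. The genes called before fell to 0 in a library or in both, so that no ratio could be called for them. *Col3a1* was then at 0 and 0.0154, *Col6a2* at 0 and 0.00526 and *Col7a1* at 0.0067 and 0, while *Col1a2* and *Col9a2* were at 0 in both. *Col1a2*, at 0.0115 and 0.0290, lay under its T cell level in both libraries. *Col3a1* had 12 and 66 UMIs in macrophages, *Col1a2* had 13 and 61, *Col6a2* had 4 and 19, *Col9a2* had 21 and 17, and *Col7a1* had 18 and 12. In B cells *Col3a1*, with 2 and 24 UMIs, was past 2-fold higher, as were 1.97% of all genes compared, and *Col16a1*, with 56 and 71, was lower, as were 10.6%. In dendritic cells *Col15a1*, with 1 and 19 UMIs, was higher (1.76% of all genes) and *Col4a2*, with 23 and 28, was lower (2.48%). In mast cells *Col4a2* was lower (4.68%) and 0 collagen genes were higher (1.29%), and in T cells *Col11a2*, with 28 and 16 UMIs, was lower (4.11%) and 0 were higher (0.856%). In endothelial cells 7 genes were compared, and 0 were past 2-fold higher or lower, where 2.23% of all genes compared there were higher and 5% lower. The log2 ratio of *Col4a1* was -0.23 [-0.39 to -0.06] and that of *Col4a2* was -0.28 [-0.48 to -0.07]. With UMIs summed over cells in place of the mean over cells, *Col13a1* and *Col23a1* were past 2-fold higher, and *Col4a1* was at 0.02 [-0.10 to 0.14], so that its direction turned. *Col16a1* had 13 and 0 UMIs in endothelial cells, too few to be compared.

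The makeup of the fibrillar UMIs outside fibroblasts was set beside that inside. *Col1a1* was 22.2% [20.2 to 24.3] and 18.6% [17.7 to 19.5] of the UMIs of *Col1a1*, *Col1a2* and *Col3a1* in fibroblasts. It was 34.6% [28.1 to 41.6] and 27.2% [23.3 to 31.5] in epithelial cells, 45.7% [30.9 to 61.0] and 23.0% [16.8 to 30.2] in macrophages, and 43.1% [30.2 to 56.8] and 26.0% [18.7 to 34.3] in T cells. In this share epithelial cells and T cells overlapped, and epithelial cells lay above fibroblasts in both libraries. The share of *Col3a1* was 49.7% [47.3 to 52.1] and 54.1% [52.9 to 55.3] in fibroblasts and 39.5% [32.8 to 46.6] and 42.6% [38.1 to 47.2] in epithelial cells. In T cells it was 15.5% [7.35 to 27.4] and 34.4% [26.3 to 43.1], below epithelial cells beyond the intervals in the library labelled Mir34a_F/F and overlapping them in the other. The 3 genes had 1668 and 7221 UMIs in fibroblasts, and the part that free RNA from these cells has in the counts elsewhere was not tested.

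Because the genotype concerns Mir34a, the letters of its target site were looked for in the collagen mRNAs. The mature miRNA of RefSeq (GRCm38.p6) lies at chr4:150068473-150068494 on the + strand and is shown with its seed, bases 2 to 8, in capitals.
mmu-miR-34a-5p: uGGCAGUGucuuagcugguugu
The site that pairs with the seed, CACTGCC, was found in the longest annotated 3′ UTR of 9 of the 44 genes (20.5%) and of 2690 of 16882 genes (15.9%). The median length of these UTRs was 1036 bases over the collagen genes and 1064 bases over all genes. The 9 genes were *Col12a1*, *Col23a1*, *Col4a3*, *Col4a4*, *Col4a6*, *Col6a1*, *Col6a2*, *Col6a6* and *Col9a3*. LysM-Cre is active in macrophages and neutrophils. In macrophages, of the 9 genes only *Col23a1*, with 66 and 84 UMIs, and *Col9a3*, with 46 and 62, had more than 20 UMIs in each library. The log2 ratio of *Col23a1* in macrophages was -0.10 [-0.88 to 0.67] and that of *Col9a3* was -0.19 [-1.02 to 0.64]. *Col6a2*, with 4 and 19 UMIs, had 2.27 [0.12 to 4.72], and *Col4a6*, with 5 and 3 UMIs, had -3.47 [-6.59 to -0.26]. The interval of *Col6a2* held 0 with UMIs summed over cells, at 1.48 [-0.11 to 3.49]. It also held 0 under 25% mitochondrial UMIs, at 2.08 [-0.19 to 4.59]. The intervals of the other 5 genes, with 3 to 19 UMIs in a library, held 0. In neutrophils only *Col23a1*, with 30 and 38 UMIs, had more than 20 UMIs in each library, at a log2 ratio of 0.19 [-0.74 to 1.13], and the others had 0 to 16 UMIs in a library. Presence of the letters does not show that a site is used.

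Collagen has to be hydroxylated, folded, exported, trimmed and cross-linked. Of 52 genes for these steps, for collagen receptors and for fibril partners, 21 were at 1 UMI per 10000 or more in fibroblasts in both libraries, where 6.32% of all genes were, and 28 were highest in fibroblasts in both, where the same held for 6.68% of all genes. Of the 37 compared between the libraries in fibroblasts, 0 were past 2-fold higher and 0 lower, where 4.64% and 4.1% of all genes compared there were. Serpinh1, the chaperone of procollagen, had 3.02 [2.31 to 3.89] and 4.55 [4.03 to 5.12] in fibroblasts, 1.88 and 1.29 in endothelial cells and 0.0284 and 0.0148 in T cells. Of the hydroxylases and their partners, P4ha1 had 1.06 and 1.31, P4hb 3.00 and 1.99, Plod2 1.84 and 1.47, and Ppib 2.27 and 2.78. The proteinase Adamts2, which trims the amino end of procollagen, had 1.66 and 1.98, and Pcolce, which speeds trimming of the other end, had 1.36 and 1.28. The cross-linking enzymes Loxl1, Loxl2 and Tgm2 had 1.31 and 2.35, 2.81 and 1.96, and 1.34 and 1.13. Among fibril partners, Dcn had 25.2 [22.8 to 27.8] and 43.0 [41.3 to 44.8], a log2 ratio of 0.77 [0.62 to 0.93], and Sparc had 13.6 [12.1 to 15.3] and 22.5 [21.2 to 23.8], a log2 ratio of 0.72 [0.53 to 0.92]. These ratios lay near that of *Col1a2*. Bgn had 14.5 and 17.4, Fn1 12.99 and 16.4, Postn 3.8998 and 6.16, and Lum 3.74 and 4.599. Dcn, Lum and Postn are also among the fibroblast markers above.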

How the data were processed

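CACs of both genotypes were profiled with 10x 3′ chemistry, 1 library per genotype. As the authors describe, Cell Ranger 7.2.0 counted the reads on mm10, doublets were removed with Scrublet, and cells with over 200 mRNAs and under 25% mitochondrial reads were kept. The deposited cells nevertheless included 2470 and 4130 at 25% or more. Whether intronic reads were counted is not given in the sources used here. The authors deposited natural log values, to which 1 had been added before the log, of UMIs scaled to 10000 in every cell, and the deposited cell types were used as given. Undoing the log gave whole UMIs, with a deviation of at most 1.5e-10. In all, the libraries held 147109016 and 193133086 UMIs.

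Levels were means over cells. Intervals at 95% were exact Poisson for UMI sums, exact binomial (Clopper-Pearson) for shares, and for means and ratios were taken from counts weighted by the depth of each cell. The width planned for ratios, from plain UMI sums, held the truth too rarely on simulated data and was kept as an alternative. Genes with at least 20 UMIs over both libraries in a cell type were compared. Groups came from the labels, and no test was possible with 1 library per genotype. Values were printed for genes at 1 UMI per 10000 or more in a cell type of either library, for genes at 0.05 or more and 3 times the T cell level in both, for genes past 2-fold, and for chains of 1 molecule. The genes, lists and splits were chosen with earlier results of these data known, and the splits by C1qa, Ly6c2, Ccr7 and Prox1 were chosen after values were seen. Gene positions were those of GENCODE on GRCm38. Python 3.11.15, numpy 2.4.6, scipy 1.17.1 and pandas 2.3.3 were used.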

Additional observations from a re-analysis of the deposited data

How the results depend on the processing

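With 1 library per genotype, no replicate could be left out. No paired analysis was possible because each genotype had 1 library. Of 135 main values recomputed under other settings, 96 kept their size and 39 moved, and none changed direction. Of 585 values of single genes, 440 kept their size, 142 moved and 3 changed sign. In the fibroblasts with 2 markers and no Epcam or Ptprc UMI, *Col8a1* had 2 and 0 UMIs and no ratio, and is not among these 3. With UMIs summed over cells in place of means, all collagen genes were at 121.8 and 167.2 per 10000 in fibroblasts and 34.5 in endothelial cells of the library labelled Mir34a_Mye_KO, the summed log2 ratio in fibroblasts was 0.46, 2 genes were higher in endothelial cells, *Col4a1* changed sign to 0.0214 there and *Col14a1* to -0.0214 in macrophages. Thinned to 1000 UMIs, 1 gene was higher and 2 lower of the 12 still compared in fibroblasts, 1 lower in epithelial cells, and 0 higher and 0 lower in macrophages. With cells under 25% mitochondrial UMIs, fibroblasts of the library labelled Mir34a_Mye_KO were at 135.7, the summed log2 ratio was 0.41, and *Col1a1*, *Col1a2* and *Col3a1* together were at 25.5 in cells with more mural markers and 92.5 in the others. With 500 mRNAs and under 10%, fibroblasts were at 114.3 and 143.7 and endothelial cells of Mir34a_Mye_KO at 29.5, 2 genes were lower in fibroblasts, and the 3 genes together were at 11.6 in cells with more mural markers and 95.8 in the others of Mir34a_Mye_KO, and 51.8 in the others of Mir34a_F/F. With the T cell level subtracted, 1 gene was higher (*Col3a1*) and 1 lower (*Col9a2*) in epithelial cells and 0 lower in macrophages. Genes whose level fell to 0 in a library had no ratio to call there. With a pseudocount of 0.1, 0 were higher or lower in epithelial cells and 0 in macrophages, where the genes called before lay under 0.1 and could not reach 2-fold. With no minimum of UMIs 2 genes were lower in endothelial cells. With intervals from UMI sums 1 gene was lower there. That width was the one first planned, and its use as an alternative was chosen after seeing the data. With a minimum of 50 UMIs 0 were lower in macrophages. With only fibroblasts with 2 fibroblast or mural markers and no Epcam or Ptprc UMI (12 and 8 cells), Mir34a_Mye_KO was at 161.3, 7 genes were higher and 2 lower, the summed log2 ratio was 0.68, *Col1a1* was 25.2% and 25.3% of the 3 genes, the 3 genes were at 23.2 and 107.5 in cells with more mural markers and the others of Mir34a_Mye_KO, and *Col6a1* changed sign to 0.64. The causes were not tested. The few fibroblasts and endothelial cells limit every stromal value, and levels under the T cell level cannot be read as expression.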

Other observations

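Collagen receptors were divided among cell types. The integrin chain Itga1 had 3.31 [2.59 to 4.16] and 1.99 [1.62 to 2.42] UMIs per 10000 in fibroblasts and Ddr2, a receptor kinase for fibrillar collagen, had 1.54 and 2.04. The related kinase Ddr1 had 0.649 [0.624 to 0.675] and 0.563 [0.538 to 0.588] in epithelial cells, together with the integrin chain Itga2 at 0.563 and 0.532. Lair1, an inhibitory collagen receptor of leukocytes, had 0.852 [0.801 to 0.906] and 1.10 [1.05 to 1.15] in macrophages. Tll1, a proteinase that can trim procollagen, was counted in endothelial cells at 1.88 [1.44 to 2.41] and 0.907 [0.696 to 1.16] and had 0 UMIs in fibroblasts of both libraries, where a count of 0 allows up to 0.0979 and 0.0441.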
